A study of Drosophila melanogaster with 2 samples.

Results

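Of 3310 peaks of the transcription factor Hand that passed the authors' reproducibility threshold in whole fly embryos, 521 lay deep inside introns. They were chosen by position alone: the summit had to lie inside a protein-coding gene, outside every annotated exon and more than 3000 bp from the nearest protein-coding transcription start site, on the dm6 build with Ensembl gene models. These far intronic peaks made up 15.7% of the thresholded list (95% Wilson interval 14.5% to 17.0%, which covers counting error only). The other summits fell within 500 bp of a start site (1643, called promoter peaks here), in introns between 500 and 3000 bp from one (629, near intronic peaks), in exons (109) and between genes (408).

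The assay was chromatin immunoprecipitation with sequencing. There was 1 group, whole Drosophila melanogaster embryos of both sexes aged 6 to 24 hours from the strain Hand-GFP, a transgenic line that stably expresses Hand with green fluorescent protein at its C-terminal end. Chromatin was sheared by sonication to 200 to 800 bp and precipitated with an antibody to that tag. The labels give 2 biological replicates, numbered 2 and 3, and no untagged or input library was among the samples analysed here. The peaks are those of the tagged protein by label only, and since whole embryos were used, the cell type in which a peak arose is unknown.

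Hand belongs to the basic helix-loop-helix transcription factors and is made in the fly heart, called the dorsal vessel, in the lymph gland and pericardial cells along it, and in the muscle around the gut. Factors of this class bind as dimers, commonly with Daughterless, to short palindrome-like sites called E-boxes. In flies many transcriptional enhancers lie in introns, and the long introns of developmental regulators are known to hold several of them, each active in its own tissue or stage. An enhancer in an intron may act on its host gene or on a neighbour, so the host named for a peak below is the gene around it and not a known target.

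Each replicate had its own list of 30000 peaks, and the thresholded list pools both. Replicate 2 stood apart around the tagged gene: in the 90 kb centred on Hand it listed 4 peaks, against 36 in replicate 3. Whether both libraries carried the tagged protein to the same degree was not tested, so the main results are also given for each replicate's own 3310 strongest peaks. Far intronic summits were 519 (15.7%) of these in replicate 2 and 504 (15.2%) in replicate 3, an average of 15.5% ± 0.32 (SD, n = 2). With 2 replicates an exact sign-flip test of any difference between classes cannot go below p = 0.5 (two-sided), so such differences are given as values in each replicate, with no test. The sequencing depth behind the lists is unknown. The signal of a peak is the authors' own value from their pooled or single-replicate list, is not on the same scale in different lists, and is used here only to describe or rank peaks within a list.

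The 5 strongest far intronic peaks on the arms whose sequence is printed here were in osa, Dys, tara, simj and Gug, and their summit windows are printed to show how much of them is A and T. Each is the plus strand of dm6 from 50 bp before to 50 bp after the summit, read 5′ to 3′ from the RefSeq copy of the genome, and capitals mark unbroken runs of at least 8 bases that are all A or T. The sixth window, from the strongest peak on those arms in a gene of the heart list, is shown for contrast because it holds no such run.
osa chr3R:17700527-17700627: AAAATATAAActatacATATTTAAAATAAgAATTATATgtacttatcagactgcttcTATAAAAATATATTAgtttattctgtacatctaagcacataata
Dys chr3R:19499197-19499297: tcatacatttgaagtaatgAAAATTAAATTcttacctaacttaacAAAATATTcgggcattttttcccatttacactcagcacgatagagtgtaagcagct
tara chr3R:16236923-16237023: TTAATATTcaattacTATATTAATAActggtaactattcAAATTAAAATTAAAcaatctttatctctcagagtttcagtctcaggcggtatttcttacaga
simj chr3L:10682944-10683044: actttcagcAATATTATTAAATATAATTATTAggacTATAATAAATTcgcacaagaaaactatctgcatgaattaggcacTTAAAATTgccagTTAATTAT
Gug chr3L:8458259-8458359: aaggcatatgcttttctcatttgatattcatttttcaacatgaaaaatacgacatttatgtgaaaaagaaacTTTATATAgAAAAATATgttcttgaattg
ush chr2L:485820-485920: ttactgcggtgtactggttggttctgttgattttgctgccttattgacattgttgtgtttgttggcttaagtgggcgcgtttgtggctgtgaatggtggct

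In these windows, runs of A and T took 46 bases at osa, 19 at Dys, 33 at tara, 50 at simj and 16 at Gug, against 0 at ush. The osa window was 81.2% A or T and the ush window 53.5%. Dys held 1 E-box and Gug held 2, while osa, tara, simj and ush held 0.

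The strongest far intronic peak lay in the fourth intron of osa (FBgn0261885), which codes for a subunit of the Brahma chromatin remodelling complex. Its signal was 797 in the thresholded list, with 248 in replicate 2 and 552 in replicate 3, and it ranked 39 among all 3310 peaks. The summit was 13506 bp from the nearest start site, which belonged to CG31249. Next came a peak in Dys (FBgn0260003), the fly dystrophin gene, with signal 652 (210.3 in replicate 2 and 439 in replicate 3), 4544 bp from a start site of its own gene. The strongest peak of tara (FBgn0040071), a regulator that interacts genetically with trithorax group genes, had signal 639, with 227 and 417 in replicates 2 and 3. These 3 peaks were also high in both replicates' own lists. Over the far intronic peaks with a summit within 100 bp in the replicate, the median there was 48.5 in replicate 2 and 85.6 in replicate 3.

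The other hosts of the 20 strongest far intronic peaks were of varied function. A peak of signal 646 (205 in replicate 2, 414 in replicate 3) lay 20123 bp from the start site of sbb, which codes for a nuclear corepressor. The strongest peak of simj, a p66-type subunit of the NuRD complex, had 626 (235 and 392), and that of Gug, the Atrophin corepressor, had 574 (228 and 341). Kdm2, a histone demethylase gene, held a peak of 558 (178 and 370.3). The histone methyltransferase gene trx held one of 506 (182 and 337), just inside the distance limit at 3051 bp, and gpp, the fly Dot1 methyltransferase gene, one of 446 (149 and 292). Pits, which codes for a partner of the Sin3A and Tramtrack repressors, held one of 393 (151 and 253). The ecdysone-induced nuclear receptor gene Hr3, overlapped by CG46321 and CG12912, held a peak of 548 (195 and 349), and Hr4, another receptor gene of that response, one of 389 (165 and 229). The helix-loop-helix gene crp had 379.6 (119.5 and 265), Dad, the inhibitory Smad of the Dpp pathway, had 379 (114 and 249.8), and mam, the Notch coactivator Mastermind, had 366 (148 and 223). The remaining hosts were CG32486 (462), CG9328 (406) and prage (359.7), with second peaks in tara (421) and simj (374).

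Of the 20 strongest, 19 had a summit within 100 bp in both replicates. The exception was the second simj peak, at chr3L:10678556-10678991, and it was the single far intronic peak with no summit that close in either replicate. A weaker thresholded peak of simj, with signal 109.9 and its summit 200 bp to the right, matched replicate peaks of 120.2 in replicate 2 and 255 in replicate 3, so the replicates' summits at that site lay nearer the weaker of its pair of thresholded peaks.

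Every peak here had already passed the authors' reproducibility threshold, which bears on how often it was found again in the replicates, in each class. The full list of replicate 2 had a summit within 100 bp of 497 of the 521 (95.4%), and that of replicate 3 of 509 (97.7%). Both replicates had one for 486 (93.3%, 95% Wilson interval 90.8% to 95.1%), against 93.2% of near intronic, 90.0% of promoter, 90.4% of intergenic and 91.1% of all thresholded peaks. Of the remainder, 23 were matched in replicate 3 alone and 11 in replicate 2 alone. Across the 486, signal in replicate 3's list was a median 1.80 times that in replicate 2's, against 1.83 for all thresholded peaks, and the values correlated with a Spearman rho of 0.586 and a Pearson r of 0.692 on log2 values. These are descriptions across peaks, which share libraries and are not independent.

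**Figure D1:**
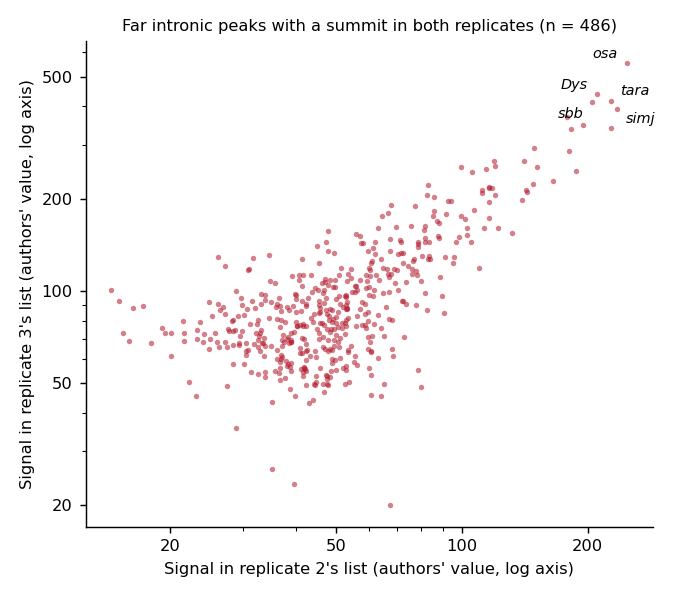
Signal of the 486 far intronic peaks that had a summit within 100 bp in both replicates, with replicate 2's list on the x axis and replicate 3's on the y axis (authors' values, log axes), each point being 1 peak. The 5 labelled peaks, in osa, Dys, sbb, tara and simj, lie at the upper right in both lists, while peaks at low signal scatter widely, with values down to 14.5 in replicate 2 and 20.1 in replicate 3.

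Far intronic peaks were seldom the strongest of the series. Their signal had a median of 131 (quartiles 107 and 176, range 92.6 to 797), against 135 for near intronic, 140.0 for promoter and 129 for intergenic peaks. The medians differed little beside these quartiles, and at the top near intronic peaks reached 2061, promoter peaks 1857 and intergenic peaks 953. In the replicates' own lists the medians were 48.9 for far intronic, 52.2 for near intronic and 53.8 for promoter peaks in replicate 2, and 86.6, 89.4 and 90.9 for the same classes in replicate 3. Among the 100 strongest thresholded peaks 6 were far intronic, and among the 331 strongest 29 were. Intergenic peaks, fewer in all, had 7 and 25 there. The 331 strongest of each replicate's own list held 29 (8.76%) in replicate 2 and 27 (8.16%) in replicate 3, below the 15.7% and 15.2% of their top 3310. Down the pooled list of 30000 the far intronic share was 6% of the 100 strongest, 9.96% of the next 231, 13.9% of the next 669, 18.1% of the next 1000 and 16.6% of the next 1310, which ends the thresholded peaks. Below the threshold it was 20% of the next 6690, 26.1% of the 10000 after them and 28.6% of the last 10000. The promoter share over the same 8 ranges was 67%, 59.3%, 50.5%, 48.2%, 47.3%, 40.3%, 25.2% and 17.1%. Sequence that meets the position rule was 25.4% of the 6 arms, so the far intronic share was below its share of sequence among the strong peaks and near or above it among the weakest.

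The DNA under far intronic summits was rich in A and T over a narrow stretch. Summit windows, 50 bp to each side, were 66.7% A or T, against 56.9% in windows of the same length centred 400 bp to both sides (56.8% on the left and 57.1% on the right). In the replicates' own lists the summit value was 65.5% in replicate 2 and 66.9% in replicate 3 (66.2% ± 0.939, SD, n = 2), against flanks of 56.7% and 57.0%, so summit and flank differed by far more than the replicates did. The excess depended on the flank: in the thresholded list, windows centred 1000 bp away were 59.9% A or T, above those at 400 bp. Single far intronic windows ranged from 35.6% to 88.1% with a median of 68.3%. Those windows were more A and T rich than promoter windows, by 4.49 percentage points in replicate 2 and 4.20 in replicate 3 (4.34 ± 0.206). They did not stand clear of near intronic windows, the difference being 0.831 and 0.167 points (0.499 ± 0.469). Over intergenic windows the difference was 0.752 and 0.845 points (0.799 ± 0.0655), with 66.7% against 66.2% in the thresholded list. The SD of 2 replicates does not cover the spread between single windows, which was far larger than these differences. The A and T share followed signal: from the strongest to the weakest of 5 equal groups of far intronic peaks it was 68.9%, 67.2%, 66.8%, 66.3% and 64.3%, with a spread between peaks of 8.13 to 9.88 points (SD) within a group.

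**Figure D2:**
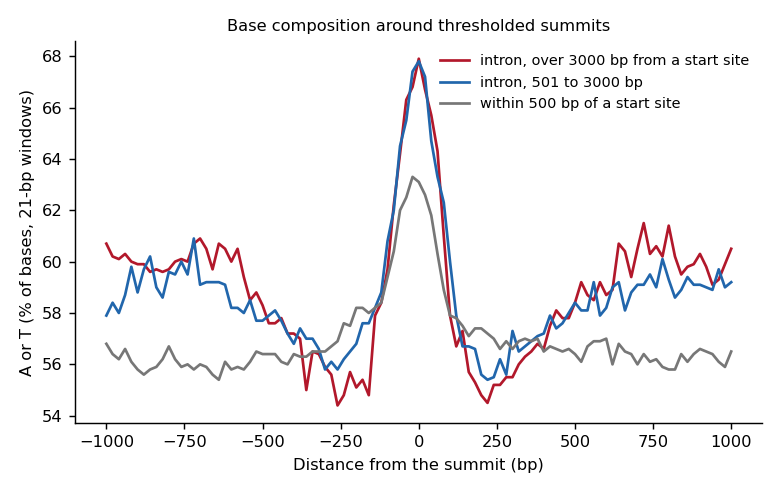
Share of bases that were A or T (y axis, %, 21-bp windows) by distance from the summit (x axis, bp) in the thresholded list, for far intronic (red), near intronic (blue) and promoter peaks (grey). Both intronic classes reach about the same height at the summit, above promoter peaks, and both dip on each side before the level comes up again toward 1000 bp (54.4% for far and 55.8% for near intronic peaks at 260 bp to the left).

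Words of 5 to 10 letters known as binding sites of developmental factors were sought on both strands of the summit windows and of both flanks. A match is a description of letters in a window and not a bound site. The general E-box CANNTG, the site class of Hand itself, was in 183 far intronic summit windows (35.1%), against 38.4% of their flanks. All thresholded summit windows held it at 34.7%, against 39.6% of their flanks, and near intronic ones at 36.6%, against 42.6%. The lower share at summits was thus not particular to far intronic peaks, and the part of base composition in it was not tested. In the replicates' own lists the far intronic share was 37.2% in replicate 2 and 35.3% in replicate 3, against flanks of 40.6% and 40.1%, so the E-box was less common at summits than beside them in both. Specific E-boxes, all of which are also counted as CANNTG, were sparse. CATCTG, the form tested for Hand with Daughterless, was in 14 windows (2.69%, against 2.50% of flanks and 2.66% of all thresholded windows). CATATG, the Twist-type form, was in 27 (5.18%, against 2.98% of flanks and 4.14% of all), but in replicate 2's own list it was at 3.85%, against 4.05% in flanks. CAGCTG was in 19 (3.65%, against 4.22% of flanks and 4.23% of all) and CAAGTG, the Tinman word, in 29 (5.57%, against 5.37% of flanks and 5.35% of all).

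In the thresholded list the words with the highest ratios of summit to flank share, 1.94 to 2.36, were those of GATA, forkhead, STAT and Mef2 factors, and each was more common at summits in both replicates' own lists too. AGATAA, a word of GATA factors such as the blood and heart regulators Serpent and Pannier, was in 55 windows (10.6%), against 5.28% of flanks and 8.16% of all thresholded windows. Its share was 10.6% in replicate 2 and 11.1% in replicate 3, against flanks of 5.49% and 4.27%. TGTTTAC, the forkhead word, was in 26 (4.99%, against 2.11% of flanks and 3.9% of all), with 4.62% and 4.96% in the replicates against flanks of 2.22% and 1.88%. TTCNNNGAA, the STAT word, was in 22 (4.22%, against 1.82% of flanks and 2.87% of all), with 4.82% and 3.97% against flanks of 3.08% and 2.48%. The Mef2 word, an A and T rich site of the myogenic factor, was in 33 (6.33%, against 3.26% of flanks and 6.86% of all), with 6.36% and 4.76% against flanks of 3.18% and 3.77%. Near intronic summit windows held the GATA word at 8.74% and the STAT word at 3.02%, below the far intronic shares. They held the forkhead word at 5.09% and the Mef2 word at 8.11%, above the far intronic shares. All of these near intronic shares lay within the Wilson intervals of the far intronic shares, which cover counting error only. The intervals were 8.2% to 13.5% for GATA, 2.8% to 6.31% for STAT, 3.43% to 7.21% for forkhead and 4.55% to 8.76% for Mef2. Intergenic summit windows held the GATA word at 8.58%, the STAT word at 3.43%, the forkhead word at 2.45% and the Mef2 word at 8.09%. Their flanks held 4.41%, 2.45%, 1.84% and 2.7%, in that order. Each of these words is itself mostly A and T, as summit windows were, and the part of base composition in these shares was not tested.

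The homeodomain core TAATTA was in 47 windows (9.02%, against 6.33% of flanks and 9.88% of all) and the A tract AAAAAA in 151 (29.0%, against 21.8% of flanks and 26% of all). Several words with more G and C were scarcer at summits. GAGAG, the GAGA factor word, was in 62 (11.9%, against 16.6% of flanks and 13.9% of all; promoter windows held it at 15.3%). CACACA was in 34 (6.53%, against 14.3% of flanks and 7.43% of all), and TGGGAA, a Su(H) word of the Notch pathway, in 22 (4.22%, against 7.29% of flanks and 4.32% of all). CAGGTA, the word of the early activator Zelda, was in 10 (1.92%, the same as in flanks, and 1.6% of all), and TGACTCA, the AP-1 word, in 4 (0.768%, against 1.06% of flanks and 0.816% of all). TATCGATA, the word of the promoter factor DREF, was in 0 of 521 windows, which allows a share of up to 0.576% (3 counts of the total, for counting error only), against 1.95% of promoter windows and 0.997% of all thresholded windows.

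**Figure D3:**
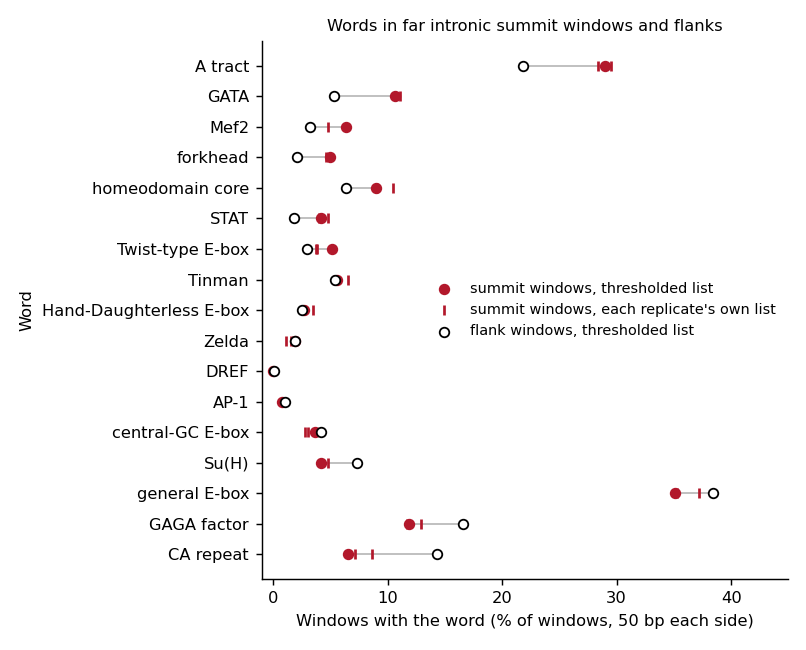
Share of windows, 50 bp to each side of the summit, with each of 17 words (x axis, %; words on the y axis, ordered by summit minus flank), for far intronic summit windows of the thresholded list (filled), the same in each replicate's own list (ticks) and flank windows of the thresholded list (open). GATA, Mef2, forkhead and STAT words lie to the right of their flanks, while the general E-box, GAGA factor, Su(H) and CA repeat words lie to the left.

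Examples of word-bearing windows are printed below with the word in capitals, again as the plus strand of dm6, 50 bp to each side of the summit. The Dys window was taken as the strongest with an E-box. The tara window, with the GATA word on the minus strand, and the Raf window, with the forkhead word on the minus strand, were chosen after their values were seen. Raf codes for a kinase of the receptor tyrosine kinase pathway, and its peak had signal 331, with 112 in replicate 2 and 214 in replicate 3.
Dys, E-box, chr3R:19499197-19499297: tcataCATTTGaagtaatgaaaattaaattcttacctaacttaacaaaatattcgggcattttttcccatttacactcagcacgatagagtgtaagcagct
tara, GATA word, chr3R:16236923-16237023: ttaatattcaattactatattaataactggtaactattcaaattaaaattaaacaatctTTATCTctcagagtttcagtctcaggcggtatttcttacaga
Raf, forkhead word, chrX:2300630-2300730: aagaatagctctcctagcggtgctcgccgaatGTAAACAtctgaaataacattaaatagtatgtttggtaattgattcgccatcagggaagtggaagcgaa

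The Dys E-box began 45 bp to the left of the summit, near the edge of the window, the tara GATA word 9 bp to the right, and the Raf forkhead word 18 bp to the left. The tara window also held the Mef2 word, which began 8 bp to the left of the summit. The Raf window also held 1 E-box, CATCTG, the form tested for Hand with Daughterless, which overlapped the forkhead word.

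Far intronic peaks were densest close to the limit that defined them. The intron sequence that meets the rule came to 34.0 Mb, 25.4% of the arms, and held 15.3 peaks per Mb. The density was 26.3 per Mb at 3 to 5 kb from a start site (176 peaks), 20.1 at 5 to 10 kb (197), 11.1 at 10 to 20 kb (89), 11.2 at 20 to 40 kb (48) and 2.11 beyond 40 kb (11). Replicate 2's own list gave 25, 20.1, 12.7, 10.5 and 1.54 per Mb over the same distances, and replicate 3's gave 25.9, 19, 12, 9.35 and 1.54. The nearest and the farthest range thus differed in every list by more than the replicates did in any range. The median summit was 6779 bp from a start site (quartiles 4415 and 10765, largest 85959). The A and T share did not fall with the peak density, with 66.5%, 65.7%, 67.5%, 68.9% and 72.1% at summits from the nearest to the farthest range. From 5 to 10 kb outward it rose while the density fell or stayed level, and the last value rests on 11 peaks.

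**Figure D4:**
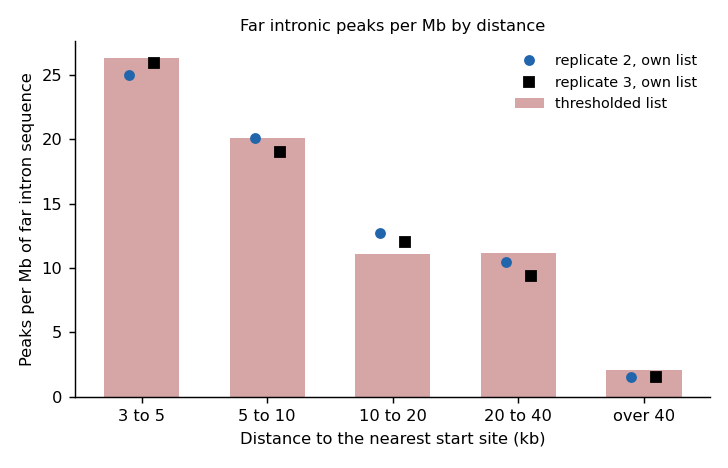
Far intronic peaks per Mb of intron sequence that meets the rule (y axis), by distance to the nearest protein-coding start site (x axis, kb), for the thresholded list (bars) and each replicate's own 3310 strongest peaks (points). The density falls to 2.11 per Mb beyond 40 kb, against 26.3 per Mb at 3 to 5 kb, and the replicates follow the bars.

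The peaks just inside the limit were in upSET (3001 bp, signal 208, with 84.1 in replicate 2 and 127 in replicate 3), siz (3009 bp, 138, with 50.5 and 85.6) and puc (3026 bp, 130, with 47.3 and 87.0). Those just outside were in CG5910 (3000 bp, 104, with 49.1 and 63.8), vib (2999 bp, 94.1, with 41.6 and 51.5) and lili (2975 bp, 232, with 72.4 and 155). The signals on both sides overlap.

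Early introns held most far intronic peaks. First introns held 196 (37.6%) and second introns 195 (37.4%), against 23.6% and 27.7% of the sequence that meets the rule, and later introns held 130 (25%), against 48.8%. In density this was 24.5, 20.7 and 7.84 peaks per Mb. The first-intron share was 33.9% in replicate 2's own list and 35.5% in replicate 3's, and the share in later introns was 26.6% and 25.4%. The introns had a median length of 17814 bp, from 207 to 132737 bp. Introns of 10 to 20 kb were the densest at 24.4 peaks per Mb, followed by 18.4 at 5 to 10 kb and 16.5 at 20 to 40 kb, while those under 5 kb held 9.90 and those over 40 kb 9.97.

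By chromosome arm, the density was 18.2 peaks per Mb on 2L (98 peaks), 16.2 on 2R (93), 12.8 on 3L (86), 13.4 on 3R (130) and 18.4 on X (114). The small arm 4 held 0 in 0.269 Mb. Spacing was counted for far intronic peaks and not for the other classes, so it is not shown to be particular to them. The median distance to the nearest other thresholded summit was 5330 bp, 87 (16.7%) had one within 1000 bp and 47 (9.02%) within 500 bp, which leaves 498 separate sites when summits within 500 bp are counted once. The start site nearest to the summit belonged to a gene around it for 374 peaks (71.8%) and to another gene for 147 (28.2%). Of the 521 summits, 502 were inside 1 protein-coding gene and 19 inside more.

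The 521 peaks lay in 339 genes, 11.3% of the 2996 protein-coding genes with any sequence that meets the rule. Of the 339 hosts, 221 held 1 peak, 78 held 2, 17 held 3, 12 held 4 and 11 held 5 or more. Hosts were large, with a median of 20.4 kb of such sequence, against 1.97 kb in the 2657 other genes. The share of genes with a peak was 0.193% among genes with under 1 kb of it, 5.45% at 1 to 5 kb, 15.7% at 5 to 10 kb, 18.9% at 10 to 20 kb, 29.5% at 20 to 40 kb and 43.3% above 40 kb. Per Mb of that sequence, genes with 5 to 10 kb held the most (28.7 peaks) and those above 40 kb held 8.73.

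Host genes also had promoter peaks more often than other genes. Any annotated start site of a gene could count, and genes were not matched by their number of start sites. A thresholded peak within 500 bp of a start site was present at 139 of 339 hosts (41.0%), against 524 of 2657 other genes (19.7%). With the replicates' own lists the shares were 39.8% of hosts against 20.4% of others in replicate 2, and 40.4% against 20.1% in replicate 3, a difference of 19.9 ± 0.615 points (SD, n = 2), far above the spread between replicates. The difference was present at each size: 60% of 10 hosts against 18.9% of others with up to 2 kb of sequence that meets the rule, 36.4% against 20.1% at 2 to 5 kb, 45.5% against 22.2% at 5 to 20 kb and 37.6% against 18.3% above 20 kb.

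The gene with the most far intronic peaks was sbb (FBgn0285917, chr2R:18278198-18357296), with 9, all with a summit within 100 bp in both replicates. They stretched from 3.05 kb to 49.7 kb behind the 5′ end of the gene with signals of 125 to 646, and sbb also had a promoter peak. Next was tara with 7 (signals 103 to 639), again all matched in both replicates, in a gene of 34.7 kb with a promoter peak. PRAS40, which codes for an inhibitor of the TOR kinase complex, also had 7 (96.5 to 248), but they formed 4 separate sites, 5 were matched in replicate 2 and 6 in replicate 3, and there was no promoter peak. Another 6 lay in gpp (93.1 to 446) and 6 in ush (93.1 to 209), whose product, of the Friend of GATA family, binds GATA factors in blood and heart. There were 5 each in simj (109.9 to 626), the corepressor gene Smr (117 to 357), Raf (111 to 331), Snoo (142 to 271), a Ski family corepressor gene of the Dpp and activin pathways, and puc (121 to 267), the phosphatase gene of the JNK pathway. The gene eIF4EHP, whose product binds the messenger RNA cap and represses translation, also held 5 (93.4 to 185), with a lower summed signal than these 10 genes, and is not among those drawn. In peaks per Mb of their sequence that meets the rule, PRAS40 (631) and puc (570.4) were the densest of these 10. Snoo (65.8) was the sparsest, with 149 to 326 in the other genes. These densities count every summit, also those within 500 bp of a stronger one. By separate sites puc was denser than PRAS40, with 5 sites in 8.77 kb of such sequence against 4 in 11.1 kb. The peaks of simj formed 3 separate sites, those of Smr 4 and those of ush 5.

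**Figure D5:**
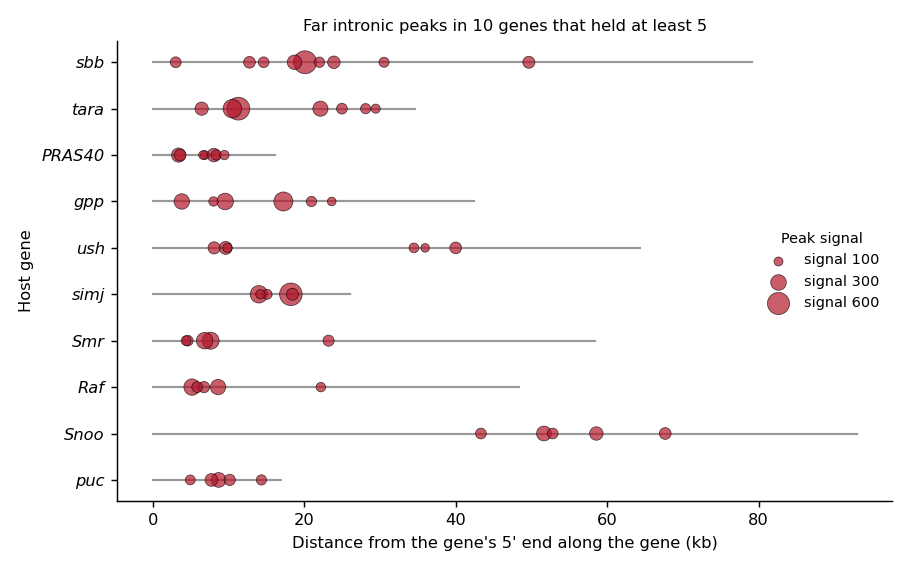
Far intronic peaks (circles, area proportional to signal in the thresholded list) along 10 of the 11 genes that held at least 5 (y axis), by distance from the gene's 5′ end (x axis, kb); grey lines span each gene. Peaks of sbb spread from 3.05 kb to 49.7 kb, those of Snoo begin 43.3 kb into the gene, and those of PRAS40 and simj include pairs whose circles overlap.

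Gene lists for the organs that express Hand and for other functions were counted among genes that could hold a far intronic peak, beside 11.3% of all such genes. Some genes are in more than 1 list, so the values of different lists are not independent. Hosts are large, so peaks per Mb of sequence that meets the rule are given too. The median qualifying gene had 10.9 kb of it in the heart list, 12.4 kb in the pericardial and 13.8 kb in the blood list. It had 23 kb in the visceral muscle list and 1.33 kb among chromatin regulators, against 2.79 kb over all genes. Of all genes with 10 to 20 kb of it 18.9% held a peak, and of those with 20 to 40 kb 29.5% did. Of 20 heart genes that qualified, 2 held a peak (10%), the myogenic factor gene Mef2 and ush, but these held 10 peaks, or 31.8 per Mb against 15.3 over all genes. The 4 in Mef2 (FBgn0011656) lay in its first intron, the strongest at chr2R:9955247-9955682 with a signal of 214 (109.7 in replicate 2, 119 in replicate 3). The other 3 had 148 (39.3 and 112), 136 (34.8 and 108) and 122 (44.1 and 79.2). The strongest of ush (FBgn0003963), the peak whose window is printed above, was at chr2L:485652-486087 with a signal of 209 (55.7 in replicate 2, 153 in replicate 3). Another of its 6 peaks, of signal 182, had no replicate 2 summit within 100 bp and 142 in replicate 3. Hand, its partner da and the heart gene tin have no intron sequence more than 3000 bp from a start site, so they could hold none.

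Of 8 pericardial and nephrocyte genes 3 held a peak (37.5%; 13.9 peaks per Mb), and all 5 of their peaks were below the far intronic median of 131. The fusion and slit-diaphragm gene kirre had 3, the strongest 108 (38.6 in replicate 2 and 67.9 in replicate 3). The adaptor gene cindr had 1 of 98.2 (29.4 and 71.1) and the junction gene pyd 1 of 94.0 (36.2 and 59.8). The count for these genes was 1 in replicate 2's own list and 2 in replicate 3's. Of 17 visceral muscle genes 6 did (35.3%; 12.1 per Mb), led by the RNA-binding protein gene how with 241 (96.6 and 145), the homeobox gene hth with 176 (59.8 and 119) and jeb, the ligand of the Alk receptor, with 162 (55.4 and 104). Of 18 blood and lymph gland genes 4 did (22.2%; 37.6 per Mb). The same 6 peaks of ush are among the 13 of this list and the 10 of the heart list, and kirre is in the pericardial, visceral muscle and guidance lists. The ETS factor gene pnt led them with 283 (107 and 184), and ush and N, the Notch receptor gene, with 167 (59.4 and 108), followed.

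Of 32 growth factor and Notch pathway genes 13 held a peak (40.6%), at 43.1 peaks per Mb, and the median qualifying gene had 10.3 kb of sequence that meets the rule, against 2.79 kb over all genes. By role these were the ligand gene dpp and the secreted EGF receptor antagonist gene aos; the receptor genes N, fz, fz2 and ptc; the nuclear factor genes mam, shn, pnt and aop; and the inhibitor genes Dad, sty and Socs36E. The zinc-finger gene shn had 4 peaks, the strongest 303 (116 in replicate 2 and 195 in replicate 3). The count of genes was 14 in replicate 2's own list, 13 in replicate 3's and 10 by the gene with the nearest start site. Of 13 ecdysone response genes 5 did (38.5%; 25.4 per Mb), with 6 in replicate 2's own list, 7 in replicate 3's and 5 by the nearest start site. These genes are large, with a median of 37.9 kb of sequence that meets the rule. Of all genes with 20 to 40 kb of it, 29.5% held a peak. In the thresholded list the 5 ecdysone hosts were Hr3, Hr4, the nuclear receptor gene Eip75B with 191 (60.9 and 125), ftz-f1 and the coactivator gene tai. Eip75B and Hr4 were exceptions to the A and T rich summits, with 45.5% and 52.5% at their strongest peaks.

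Of 18 chromatin regulator genes 4 held a peak (22.2%): osa, trx, the kinase gene Tlk with 145 (66.8 in replicate 2 and 81.0 in replicate 3) and psq. At 73.4 peaks per Mb theirs was the highest density of the lists in the thresholded peaks, though their sequence that meets the rule came to only 0.0954 Mb. Some names of this list were taken from earlier results of these data, and all the lists were chosen with such results known. The count of no list is therefore separate evidence. Among zinc-finger and helix-loop-helix genes the median qualifying gene had 16.3 kb of sequence that meets the rule. Of all genes with 10 to 20 kb of it, 18.9% held a peak. Of 21 zinc-finger and helix-loop-helix genes 6 did (28.6%; 22.2 per Mb), among them crp, the hypoxia factor gene sima with 182 (47.9 and 135) and the Myc antagonist gene Mnt with 154 (43.6 and 81.8).

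Lists for other tissues were counted in the same way. The median qualifying gene had 12.9 kb of sequence that meets the rule in the neuronal list and 7.42 kb in the muscle contraction list. Of all genes with 10 to 20 kb of it 18.9% held a peak, and of those with 5 to 10 kb 15.7% did. The neuronal share of 19.2% was near the first of these, and the muscle contraction share of 11.1% near the 11.3% of all genes. Of 25 guidance and cell adhesion genes 8 held a peak (32.0%; 11.3 per Mb), led by the glypican gene dlp with 227 (83.5 in replicate 2 and 144 in replicate 3), the adhesion gene Nrg with 167 (50.8 and 113) and the Netrin receptor gene fra with 154 (46.9 in replicate 2). These genes are large, with a median of 34.3 kb of sequence that meets the rule, and by the nearest start site the count was 3. Of 26 neuronal genes 5 did (19.2%; 10 per Mb), led by the cAMP phosphodiesterase gene dnc with 326 (119.7 and 206), nAChRalpha6 with 139 (39.9 and 98.0) and fne, an ELAV family gene, with 134 (48.2 and 83.1). Of 18 muscle contraction genes 2 did (11.1%; 12.7 per Mb), the Z-disc gene Zasp52 with 228 (95.7 and 129) and the tropomodulin gene tmod with 109.9 (48.9 and 60). Guidance and neuronal lists lay below the 15.3 peaks per Mb of all genes while above its 11.3% of genes with a peak, so the direction of their difference turned with the measure. The same held for the pericardial and visceral muscle lists, and in reverse for the heart list.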

How the data were processed

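Hand-GFP chromatin immunoprecipitation and sequencing of whole embryos gave 1 list of peaks for each of 2 replicates, a pooled list and a thresholded list, each with a signal value for every peak. The deposited signal is the authors' own value per peak and is not rescaled between lists. A listing that the authors deposited names 1 control shared by these lists, and derives the thresholded list from the replicates' and pooled lists. Which aligner and peak caller were used, with what settings and threshold, is not given in the sources used here, nor is the read depth. Lists on the older dm3 build were not used here.

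Summits were placed on dm6 with Ensembl release 115 gene models (exons of every annotated gene, start sites of protein-coding transcripts, 6 main arms), and sequences came from the RefSeq copy of the same assembly. A host is any protein-coding gene whose body holds the summit. Intron number is that in the longest transcript whose intron holds it. Replicates were compared by summits within 100 bp, and by the 3310 strongest peaks of each replicate's own list. Words were sought in windows of 50 bp to each side, at the summit and 400 bp to both sides. Named genes were the hosts of the 20 strongest peaks, the 10 hosts with the most peaks (ties by summed signal), the 3 genes with the strongest peak in each of 11 lists, always Hand, da and tin, and the 3 peaks nearest the distance limit on each side. Other list genes are named as members of a count. All 263 list symbols were matched, 9 of them through a current name. The members and lists were chosen with earlier results of these data known, and no test was made. The labels call the replicates biological and say no more of their origin. Alternatives changed the exons, start sites, distance limit, replicate, strength, matching distance, window, flank, gene assignment and the merging of near summits. Procedures were tested on simulated data. Computations used Python 3.11.15, numpy 2.4.6, pandas 2.3.3, scipy 1.17.1 and matplotlib 3.10.9.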

Additional observations from a re-analysis of the deposited data

How the results depend on the processing

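The number of far intronic peaks was 345 with a limit of 5000 bp and 240 in the stronger part of the list (the 1655 strongest peaks), which also had 181 host genes and a median signal of 182; fewer peaks enter by construction. The share of thresholded peaks was 13.6% with start sites of every annotated gene, 19.5% with a limit of 2000 bp, 10.4% with 5000 bp and 14.5% in the stronger part, and 15.2% to 15.7% when 1 replicate was left out. The median signal without 1 replicate was 48.9 to 86.6, since each list has its own scale. The share with a summit in both replicates depended most on the matching distance, with 69.7% within 50 bp, 99.6% within 250 bp and 100% for any overlap. It was 93.4% with protein-coding exons, 93.1% with all start sites, 93.7% and 93.9% with limits of 2000 and 5000 bp, 95% in the stronger part and 94.2% with near summits merged, a setting chosen after seeing the data; for each replicate's own 3310 strongest peaks, matched in the other's full list, it was 87.5% without replicate 2 and 87.5% without replicate 3. First introns held 39.0% with all start sites, 40.6% and 33.6% with limits of 2000 and 5000 bp, 36.3% with near summits merged and 33.9% to 35.5% without 1 replicate. The A and T share at summits was 65.5% to 66.9% without 1 replicate, 68.1% in the stronger part and 64.4% in windows of 100 bp to each side. The E-box share was 37.1% with a limit of 5000 bp, 35.3% to 37.2% without 1 replicate, and 19.8% and 61.0% in windows of 25 and 100 bp to each side, as shorter and longer windows hold fewer and more words. Flanks centred 1000 bp away were 59.9% A or T, against 56.9% at 400 bp, and held the E-box at 40.1%, against 38.4%. The other word shares are given against the flanks at 400 bp. Unless stated, the cause was not tested.

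Of the 17 words, 13 kept the sign of summit minus flank in both other window lengths. CATCTG turned to -1.34 percentage points in the longer window. Guidance genes with a peak numbered 3 by the nearest start site, pericardial genes 1 without replicate 3 and muscle contraction genes 1 without replicate 2. No paired analysis was possible because there is 1 group, with no second group to pair it with; differences between peak classes or gene sets within a replicate are given as values for each replicate. The unknown depth and the lack of a control library here limit what the peak lists show, and 2 replicates limit every comparison.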

Other observations

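Of all 2080 hexamers, counted with their reverse complements, those with the largest excess at far intronic summits over their flanks were made of A and T alone. AAATAT was in 35.5% of summit windows against 14.5% of flanks, TAAATA in 30.3% against 13.1%, ATTTTA in 31.3% against 14.1%, AATATA in 25.1% against 8.73% and ATATTA in 23.8% against 7.68%. At the other end, CACACA was in 6.53% of summit windows against 14.3% of flanks, GGGGGA in 0.96% against 7.39% and GCAGCA in 3.07% against 9.50%. These are the extremes of a ranking, given as values with no test.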
